A study of Mus musculus with 8 samples.

Results

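The 9 genes described here mark the mural cells of blood vessels, which are the smooth muscle cells of arteries and veins and the pericytes of capillaries. They were named from knowledge of these cells, and array probes were assigned to them when the accession of the probe belonged to the gene in RefSeq. All 9 were measured, out of 25101 gene names in all. White adipose tissue came from 5-week-old mice of the 129 × C57BL/6 strain on regular chow. The 8 samples were 4 from wild-type (WT) mice and 4 from Ad/NICD mice, which overexpress N1ICD, the Notch1 intracellular domain. The sources used here do not name the promoter or recombinase behind the transgene, the fat depot or the sex of the mice.

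Smooth muscle cells narrow vessels with a contractile apparatus of actin, myosin and their regulators, and pericytes wrap capillaries and keep the endothelium stable. Both are recruited by platelet-derived growth factor from endothelial cells, and both carry the receptor Notch3, whose signal is passed on by nuclear factors such as Heyl. In fat, contractile genes are not private to vessels: the myoepithelial cells around the mammary ducts, which run through the fat pads of the breast region, also contain smooth muscle actin, calponin and smooth muscle myosin. Several pericyte genes are likewise found in stromal progenitors of fat. The comparison asked how these markers differed between the genotypes, and how their differences stood beside those of Heyl and Notch3.

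RNA of same-numbered WT and Ad/NICD samples was hybridised in 2 colours to the same array, so there were 4 arrays, each a pair. Signs are given for red over green, taken as Ad/NICD over WT because the authors' value table assigns the channels that way. The labels' dye tags give the reverse; under them every sign below would turn and WT and Ad/NICD levels would trade places. No dye was swapped, so dye and genotype cannot be told apart. Levels are log2 signals after loess and scaling between arrays, and they are compared within a probe, never between probes. In bulk tissue, fewer cells of a type and less RNA per cell cannot be told apart. The adipocyte genes that check the tissue, Adipoq, Fabp4 and Plin1 among them, were all 10 measured, with a mean log2 signal of 13.98 to 14.44 in WT and 13.15 to 14.03 in Ad/NICD samples. Per channel, 58.1% to 68.6% of probes were well above background, and having only 4 arrays limits the precision. All 9 markers were well above background in both channels on 4 of 4 arrays. The pair of replicate 4 stood apart: Xist, the X-inactivation RNA of female cells, had a log2 signal of 6.12 and 5.87 there against 10.15 to 10.45 in the other 6 samples, and Ddx3y on the Y chromosome had 9.96 and 9.55 against 5.75 to 5.86. By these genes replicates 1 to 3 had a female pattern and replicate 4 a male one in both genotypes, and the markers' ratios and the list medians are given with and without it.

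None of the 9 markers passed the threshold in limma, which was an adjusted p under 0.05 over all gene names; the background rate of calls was 0.0478% (12 gene names), with 0.0279% higher and 0.0199% lower. Of the 9, 6 had a mean log2 ratio below 0 and 3 above it, with a median of -0.24 against -0.0059 over all gene names. The ratios ran from -0.64 for Cnn1 to 0.39 for Myh11. An unadjusted p under 0.05 was found for 2 of 9 (Mcam and Cspg4), or 22.2%, against 15.2% of all gene names. The array of replicate 4 pointed the other way for most of them. On the arrays of replicates 1 to 3, 8 of 9 markers had the same sign, where 43.3% of all gene names did, and for 6 of 9 the array of replicate 4 had the opposite sign, where 18.8% did. The sign was the same on all 4 arrays for 2 of 9 (Myh11 and Mcam), against 24.5% of all gene names. WT replicate 4 lay far below the other WT samples for 4 of 9, against 3.49%. These counts were chosen after the values were seen.

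The contractile genes were 4: Acta2, Tagln, Myh11 and Cnn1. Acta2, the smooth muscle actin of the contractile filament, had log2 signals of 13.36, 13.64, 13.56 and 11.52 in WT replicates 1 to 4 and 12.36, 12.80, 13.06 and 12.23 in Ad/NICD replicates 1 to 4. WT replicate 4 was the lowest of all 8 samples and the groups overlapped. The ratios were -1.0, -0.84, -0.50 and 0.71, lower in Ad/NICD in the pairs of replicates 1 to 3 and higher in that of replicate 4. The mean was -0.41 ± 0.30 (SE, n = 4 arrays), with a 95% interval of -1.16 to 0.35 and an adjusted p of 0.575 in limma. The mean was -0.78 without replicate 4 (adjusted p = 0.112 in limma), -0.21 without replicate 1 and -0.26 without replicate 2. The Acta2 probe was printed in 10 spots on each array, and the SD of the ratio between those spots was 0.044 to 0.072, against 0.77 between arrays.

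Cnn1, calponin, which binds actin and restrains the myosin motor, had the widest range. Its log2 signals were 12.29, 12.63, 12.35 and 8.60 in WT replicates 1 to 4 and 10.57, 10.76, 11.85 and 10.14 in Ad/NICD. Again WT replicate 4 was the lowest sample, 14.1-fold below the mean of the other WT samples, and the groups overlapped. The ratios of -1.72, -1.87, -0.50 and 1.54 gave a mean of -0.64 ± 0.60 (95% interval -2.15 to 0.87, adjusted p = 0.663 in limma). The mean was -1.37 without replicate 4 (adjusted p = 0.152 in limma), -0.28 without replicate 1 and -0.23 without replicate 2.

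Tagln, transgelin or SM22, an actin-bundling protein of smooth muscle, followed the same order with smaller steps. It had 13.65, 13.86, 13.67 and 12.59 in WT and 13.29, 13.34, 13.60 and 12.79 in Ad/NICD. Both samples of replicate 4 were lower than the other 6. Its ratios were -0.36, -0.52, -0.069 and 0.20, with a mean of -0.19 ± 0.13 (95% interval -0.52 to 0.15, adjusted p = 0.565 in limma). It was -0.32 without replicate 4, and -0.13 and -0.076 without replicates 1 and 2.

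Myh11, the smooth muscle myosin heavy chain and the most restricted of the contractile markers, differed from the others. Its log2 signals were 9.62, 9.60, 9.66 and 8.66 in WT and 9.66, 9.78, 9.81 and 9.85 in Ad/NICD. The groups did not overlap, by a margin lost in rounding, as 9.66 was both the highest WT and the lowest Ad/NICD value; such separation was seen for 9.79% of all gene names. The ratios were 0.038, 0.19, 0.16 and 1.18, and the mean of 0.39 ± 0.21 (95% interval -0.14 to 0.92, adjusted p = 0.443 in limma) was 0.13 without replicate 4, while median centring of the arrays turned it to -0.12. So in the pairs of replicates 1 to 3, where Acta2 and Cnn1 were lower in Ad/NICD, Myh11 was within 0.19 of equal.

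**Figure D1:**
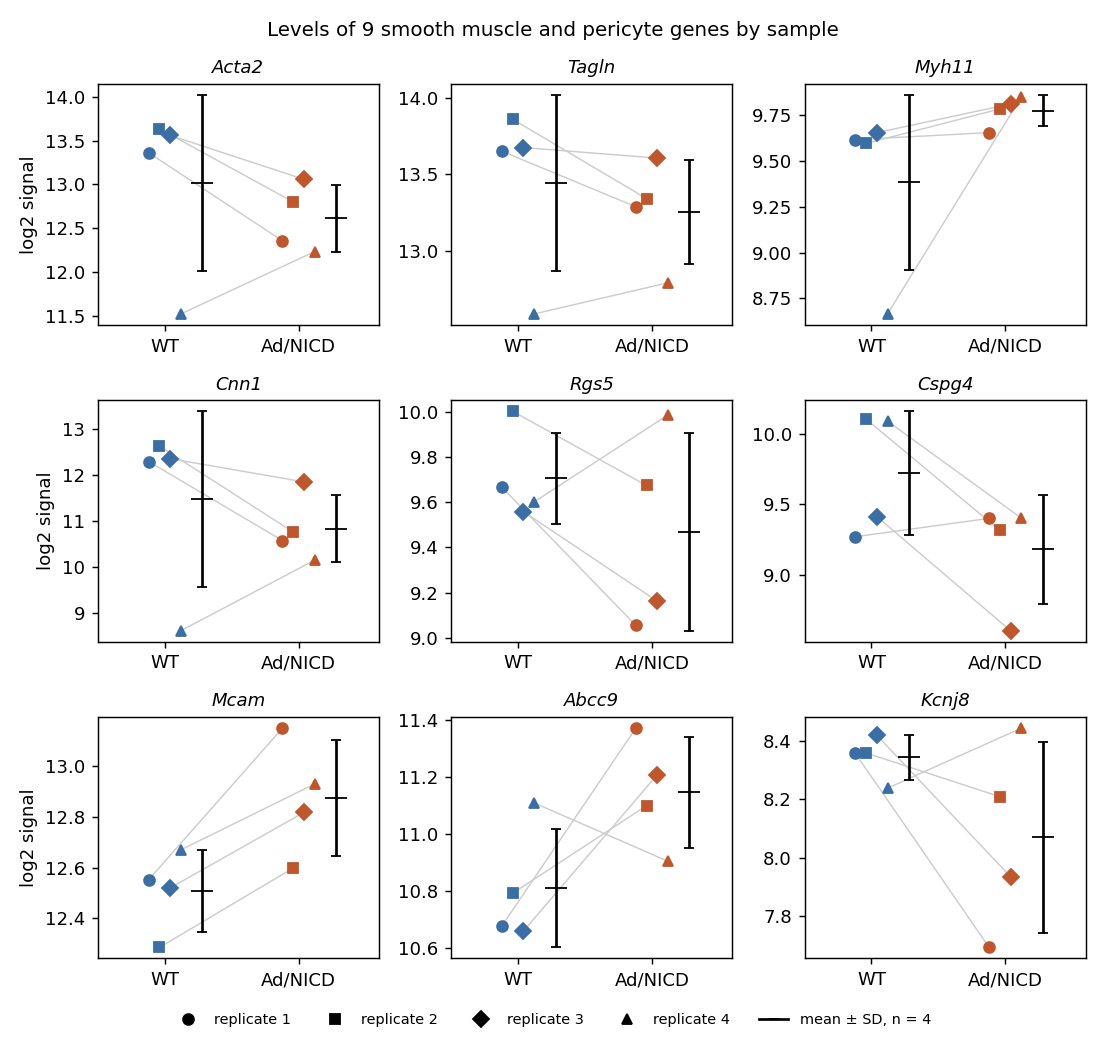
Log2 signal of the 9 genes (y axis, a separate scale for each gene) in WT (blue) and Ad/NICD (orange) samples, with marker shape for the replicate, grey lines joining samples of 1 array, and bars for the mean ± SD (n = 4). WT replicate 4 lies far below the other WT samples for Acta2, Tagln, Myh11 and Cnn1, at 8.60 against 12.29 to 12.63 for Cnn1, and no such gap is seen for Rgs5.

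Acta2 and Cnn1 levels followed each other across samples, and their promoters are shown for this reason. They are RefSeq sequence of the GRCm38.p6 build, in a window of 300 bases around an annotated start. For Acta2, Cnn1 and Abcc9 this start lies inside the gene span, so distances are from it and not from the outermost start. Promoters were found for 7 of the 9 genes. The motif marked here was the CArG box, the site of serum response factor in smooth muscle genes, searched on both strands. An exact match is in 1.63% of all 32851 promoters of this length and in 0 of these 7. A looser form, with up to 1 G or C in the A/T core, is in 9.98% of all promoters. Among the 7 genes it was found for Acta2, at 84 and 34 bases upstream of the start, as capitals mark. Cnn1 had no match to either form in this window. The strings TGGGAA, described below, and CATTCC were searched in the same way. CATTCC is in 14.7% of all promoters, and among the 7 genes it was found for Acta2 and Abcc9.
Acta2 promoter, chr19:34255324-34255623, minus strand: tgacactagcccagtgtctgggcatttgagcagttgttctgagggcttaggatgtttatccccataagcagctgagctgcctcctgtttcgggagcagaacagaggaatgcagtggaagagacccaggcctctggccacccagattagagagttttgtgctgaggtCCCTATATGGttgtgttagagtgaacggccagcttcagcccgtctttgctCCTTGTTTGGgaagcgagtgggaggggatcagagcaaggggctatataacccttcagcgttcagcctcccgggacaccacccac
Cnn1 promoter, chr9:22099003-22099302, plus strand: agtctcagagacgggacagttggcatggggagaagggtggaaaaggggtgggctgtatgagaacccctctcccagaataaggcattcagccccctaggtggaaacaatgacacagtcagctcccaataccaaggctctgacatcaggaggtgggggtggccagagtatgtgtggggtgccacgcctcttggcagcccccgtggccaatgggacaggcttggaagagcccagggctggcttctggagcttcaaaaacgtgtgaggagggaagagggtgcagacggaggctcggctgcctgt

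Some epithelial genes of the mammary gland, among them Krt5, were ordered partly like Acta2, Tagln and Cnn1 over the samples. Krt5, a keratin of basal and myoepithelial cells, had log2 signals of 11.55, 11.55, 11.67 and 6.53 in WT and 9.60, 9.75, 11.53 and 6.65 in Ad/NICD. It was lowest in both samples of replicate 4 and, in the other pairs, lower in Ad/NICD for replicates 1 and 2 and near equal for replicate 3. The Cnn1 ratios were likewise most negative in replicates 1 and 2, at -0.50 in replicate 3, and, unlike that of Krt5, well above 0 in replicate 4. Krt14, its partner keratin, had ratios of -1.11, -1.54, 0.27 and 0.012, and Krt17 had -1.75, -2.21, -0.26 and 0.042. Oxtr, the oxytocin receptor that makes myoepithelium contract, had a log2 signal of 10.33 to 11.55 in replicates 1 to 3 and of 7.78 and 8.26 in replicate 4. Leaving out the 3 genes it shares with the markers, the myoepithelial list had 7 genes, all measured, of which 5 were below 0 and 0 passed in limma (median -0.37, and -0.53 without replicate 4). Trp63, a transcription factor of basal cells, had 0.21 ± 0.078, with 11.17 and 11.28 in replicate 4 against 10.67 to 11.16. Mme, the surface peptidase CD10, had 8.44 and 8.551 there against 7.93 to 8.84, and Jag2, a Notch ligand, 7.33 and 7.42 against 7.13 to 7.63. So 4 of the 7 genes were far lower in replicate 4 and 3 were not. The mean log2 signal of the 7 genes was 7.73 to 10.12 in WT and 7.86 to 9.97 in Ad/NICD. Luminal epithelium, the milk-secreting layer, was measured in 10 of 10 genes and had a mean of 6.25 and 6.66 in the WT and Ad/NICD samples of replicate 4 against 9.74 to 11.21 in the others, with 8 of 10 below 0, a median ratio of -0.28 (-0.49 without replicate 4) and 0 passing. The luminal list median was -0.72, -1.07, 0.52 and 0.061 on the arrays. It was above 0 in replicate 3, where Acta2, Tagln and Cnn1 had ratios below 0. Krt8, a keratin of luminal cells, had 5.98 and 5.97 in replicate 4, against 9.65 to 10.76. The part of mammary epithelium in the values of Acta2, Tagln and Cnn1 was not tested. The levels of Krt5, Krt14, Krt8, Mme and Jag2 were chosen after they were seen.

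**Figure D2:**
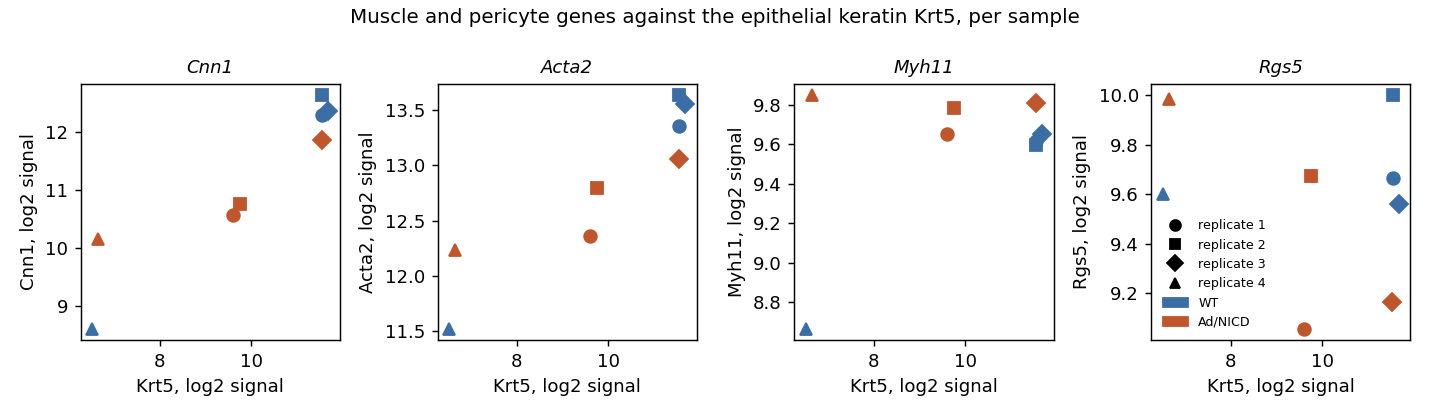
Log2 signal of Cnn1, Acta2, Myh11 and Rgs5 (y axes) against that of the keratin Krt5 (x axis) in the 8 samples, with colour for genotype and marker shape for the replicate. Cnn1 and Acta2 are high where Krt5 is 11.53 to 11.67 and lower where it is 9.60 and 9.75. In replicate 4, Krt5 is 6.53 in WT and 6.65 in Ad/NICD, with Cnn1 at 8.60 and 10.14 and Acta2 at 11.52 and 12.23. Myh11 stays between 9.60 and 9.85 in all samples but WT replicate 4, and Rgs5 shows no order by Krt5.

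The mean of the 4 contractile genes, each centred over the samples, spanned 2.09 on the log2 scale over 8 samples and 0.96 over the 6 of replicates 1 to 3. Cnn1 (Pearson r = 0.99), Acta2 (0.99) and Tagln (0.96) lay close to it and Myh11 less so (0.68, and -0.41 in the 6 samples). Each of the 4 is part of this mean, and Cnn1 had the widest range, so these r are partly built in. Of all other gene names, Abca8a, a lipid transporter of the ABC family, Rassf9, Slc6a8, the creatine transporter, Glce, an enzyme of heparan sulfate synthesis, and a transcript named AK140373 had the highest r, from 0.986 to 0.988 over 8 samples and from 0.95 to 0.98 without replicate 4. Krt5 had 0.93 and 0.95. Heyl had -0.15 over 8 samples and -0.80 over the 6, and Notch3 had 0.089 and -0.47. Heyl and Notch3 were split by genotype, and in the 6 samples Acta2, Tagln and Cnn1 were lower in Ad/NICD within each pair. The r of Heyl and Notch3 over the 6 thus partly restate the genotype differences. All r given here are descriptions over samples that share arrays, and the highest values were picked from 25101.

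The pericyte markers were 5 and did not share a direction. Rgs5, a regulator of G-protein signalling and a standard pericyte marker, had log2 signals of 9.66, 10.001, 9.56 and 9.60 in WT and 9.06, 9.67, 9.16 and 9.98 in Ad/NICD. WT replicate 4 was within the range of the other WT samples, unlike for the contractile genes. The ratios were -0.61, -0.33, -0.40 and 0.38, with a mean of -0.24 ± 0.17 (95% interval -0.67 to 0.20, adjusted p = 0.572 in limma), which was -0.44 without replicate 4 (adjusted p = 0.137 in limma) and -0.11 without replicate 1.

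Cspg4, the proteoglycan NG2 on the surface of pericytes and of some progenitors, had 9.27, 10.10, 9.41 and 10.09 in WT and 9.40, 9.31, 8.61 and 9.40 in Ad/NICD. It was lower in Ad/NICD in replicates 2, 3 and 4 and near equal in replicate 1, and the groups overlapped. The ratios of 0.13, -0.79, -0.81 and -0.69 averaged -0.54 ± 0.18 (95% interval -0.99 to -0.087), and the adjusted p was 0.264 in limma. Without replicate 4 the mean was -0.49. Replicate 4 lay with replicates 2 and 3 here.

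Mcam, the adhesion molecule CD146 of mural and endothelial cells, was higher in Ad/NICD on 4 of 4 arrays. Its log2 signals were 12.55, 12.29, 12.52 and 12.67 in WT and 13.15, 12.60, 12.82 and 12.93 in Ad/NICD, with the groups overlapping. The ratios were 0.60, 0.31, 0.30 and 0.26, and the mean was 0.37 ± 0.080 (95% interval 0.16 to 0.57, adjusted p = 0.161 in limma) and 0.40 without replicate 4. Median centring, which takes the median of all gene names to -0.32, gave -0.028. The other probe of the gene disagreed, with -0.54, -0.14, -0.83 and 0.089 and a mean of -0.36. That probe was dimmer, with 7.69 as its mean log2 signal against 12.69, and both are assigned to the same transcript. The direction of Mcam therefore depended on the probe.

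Abcc9 and Kcnj8 encode the subunits of 1 channel, the ATP-sensitive potassium channel that relaxes vessels: Abcc9 the sulfonylurea receptor and Kcnj8 the pore. The genes are neighbours on chromosome 6. Abcc9 had 10.68, 10.79, 10.66 and 11.11 in WT and 11.37, 11.10, 11.21 and 10.90 in Ad/NICD. It was higher in Ad/NICD in replicates 1 to 3 and lower in replicate 4, with ratios of 0.69, 0.31, 0.55 and -0.20, a mean of 0.34 ± 0.16 (95% interval -0.066 to 0.74, adjusted p = 0.398 in limma) and 0.52 without replicate 4 (adjusted p = 0.136) or 0.22 without replicate 1, while median centring turned it to -0.16. Kcnj8 had 8.36, 8.36, 8.42 and 8.24 in WT and 7.69, 8.21, 7.94 and 8.44 in Ad/NICD. Its order was the reverse, with ratios of -0.66, -0.15, -0.48 and 0.21 and a mean of -0.27 ± 0.15 (95% interval -0.66 to 0.12, adjusted p = 0.470 in limma), which was -0.43 without replicate 4 and -0.14 without replicate 1. Abcc9 minus Kcnj8 was 1.36, 0.46, 1.03 and -0.41 on the arrays (mean 0.61, SD 0.77; exact two-sided sign-flip p = 0.25, where 4 arrays cannot go below 0.13). Kcnj8 was the dimmest of the 9, with background-subtracted red intensities of 72.4 to 237, and the offset of 50 pulls such ratios toward 0; it was -0.30 with an offset of 16.

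Because the proteins share a channel, the promoters are set side by side, as RefSeq sequence of GRCm38.p6. Capitals mark TGGGAA, the core of the site of RBPJ, the DNA-binding partner of N1ICD, searched on both strands. It occurs in 25.6% of all promoters of this length, and in 3 of the 7 found here (Acta2, Abcc9 and Kcnj8). In Acta2 it overlaps the CArG-like match nearer the start. In Abcc9 it lies 221 bases upstream of the start used for the window, and in Kcnj8 it begins at the annotated start. The Abcc9 gene span reaches chr6:142702766, beyond the window shown. A match is a string of letters, and binding at it was not tested.
Abcc9 promoter, chr6:142702225-142702524, minus strand: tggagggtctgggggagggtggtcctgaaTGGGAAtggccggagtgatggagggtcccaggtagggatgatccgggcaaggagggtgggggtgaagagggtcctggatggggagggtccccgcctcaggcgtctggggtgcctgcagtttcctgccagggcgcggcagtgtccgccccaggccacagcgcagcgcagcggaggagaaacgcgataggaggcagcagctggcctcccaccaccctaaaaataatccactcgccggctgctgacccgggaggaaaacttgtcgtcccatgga
Kcnj8 promoter, chr6:142571565-142571864, minus strand: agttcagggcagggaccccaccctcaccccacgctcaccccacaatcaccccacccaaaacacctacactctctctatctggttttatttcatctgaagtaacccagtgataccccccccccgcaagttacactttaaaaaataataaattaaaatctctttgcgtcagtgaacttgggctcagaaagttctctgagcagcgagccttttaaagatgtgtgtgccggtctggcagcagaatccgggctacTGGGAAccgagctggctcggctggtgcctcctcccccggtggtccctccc

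The mean of the 5 pericyte genes spanned 0.40 on the log2 scale over 8 samples. The 5, each a part of this mean, correlated with it at r = 0.86 (Cspg4), 0.72 (Rgs5), 0.48 (Kcnj8), -0.17 (Abcc9) and -0.19 (Mcam). They did not form 1 pattern. The gene names nearest to it were Clic5, an intracellular chloride channel protein, Ascl3, a transcription factor, Cdk17, Gcgr, the glucagon receptor, and Alg9, an enzyme of protein glycosylation, at r = 0.969 to 0.989 over 8 samples and 0.947 to 0.981 over the 6 without replicate 4.

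Heyl, the nuclear effector, had log2 signals of 8.74, 8.78, 8.62 and 8.61 in WT and 11.04, 11.99, 11.38 and 11.83 in Ad/NICD. Every Ad/NICD sample was above every WT sample, and Heyl rose by a log2 ratio of 2.87 ± 0.17, or 7.33-fold (adjusted p = 0.0399 in limma), and 2.76 without replicate 4. On 4 of 4 arrays it exceeded all 9 markers: the highest marker was Abcc9 at 0.69 against 2.30 for Heyl in replicate 1, Mcam at 0.31 against 3.21 in replicate 2, Abcc9 at 0.55 against 2.76 in replicate 3 and Cnn1 at 1.54 against 3.22 in replicate 4. Heyl minus a marker averaged from 2.48 (SD 0.43, for Myh11) to 3.51 (SD 1.43, for Cnn1), positive on 4 of 4 arrays for each of the 9. These gaps, and those of Notch3 that follow, are a description with no test, since both genes were set beside the markers for their known rise.

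Notch3 had 11.76, 11.81, 11.82 and 11.49 in WT and 11.99, 12.53, 12.58 and 12.69 in Ad/NICD. The groups did not overlap, its ratio was 0.73 ± 0.16 (95% interval 0.32 to 1.13), and it did not pass (adjusted p = 0.161 in limma). It was 0.57 without replicate 4 and 0.29 with median centring (adjusted p = 0.503 in limma). It lay above 7 of 9 markers in replicate 1, 9 in replicates 2 and 3, and 8 in replicate 4. Notch3 minus Rgs5 was 0.84, 1.05, 1.15 and 0.82 and Notch3 minus Kcnj8 was 0.89, 0.88, 1.24 and 0.99, the steadiest of the pairs. Against Myh11 the gap was 0.19, 0.54, 0.60 and 0.015. Against Mcam it was -0.37, 0.41, 0.46 and 0.94, and against Abcc9 it was -0.46, 0.42, 0.21 and 1.40. Notch3 exceeded 6 of the 9 markers on 4 of 4 arrays, and Cnn1, Mcam and Abcc9 on 3. Without replicate 4 its mean gap to Abcc9 was 0.054 and to Mcam 0.17. A difference of ratios within an array shows unequal change and does not show which cells hold the RNA.

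**Figure D3:**
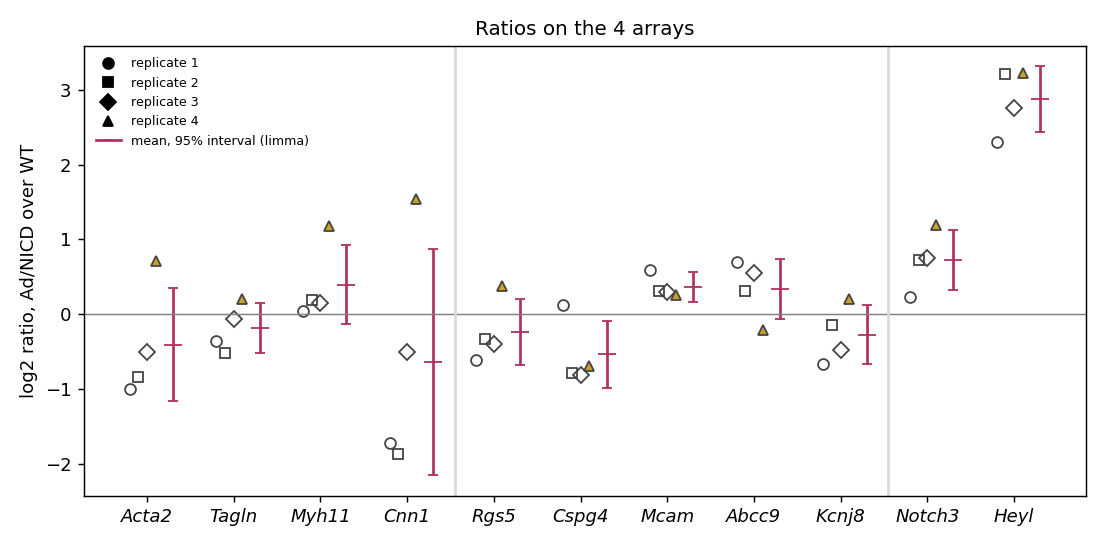
Log2 ratio of Ad/NICD over WT (y axis) on each of the 4 arrays for the 4 contractile genes, the 5 pericyte genes, Notch3 and Heyl, with replicate 4 filled and bars for the mean and its 95% interval in limma. The 4 Heyl ratios of 2.30 to 3.22 lie above those of all 9 markers, and replicate 4 is the highest array for each contractile gene.

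**Figure D4:**
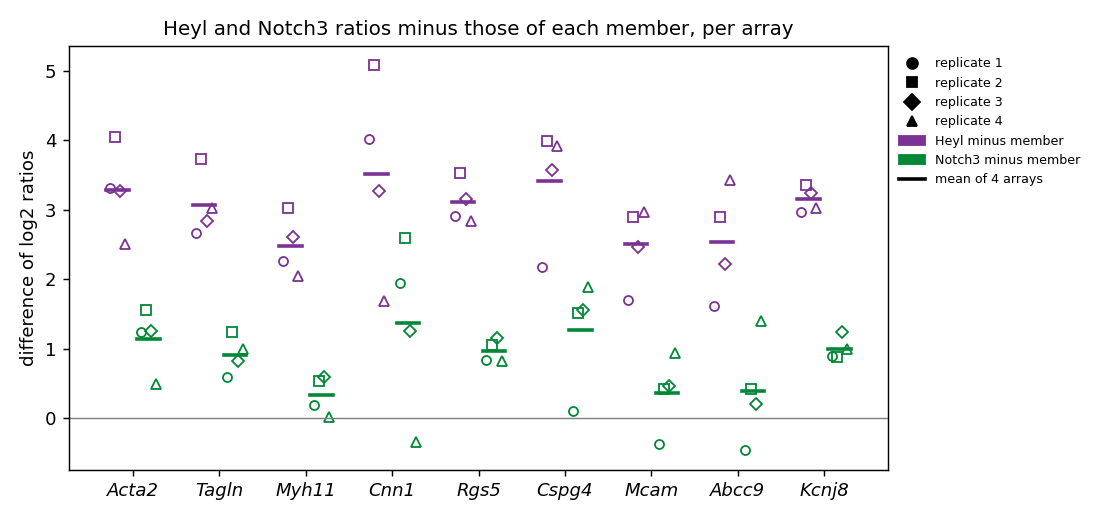
Ratio of Heyl (purple) or Notch3 (green) minus the ratio of each marker on the same array (y axis, log2), with marker shape for the replicate and bars for the mean of 4 arrays. All Heyl differences lie between 1.61 and 5.08, while Notch3 differences reach down to -0.46.

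Other genes of the contractile programme, from a list of 30 of which 29 were measured, were 11 above 0 and 18 below it, with a median of -0.082 and 0 past the threshold in limma. Tpm2, beta-tropomyosin, was lower on 4 of 4 arrays at -0.63 ± 0.10 (adjusted p = 0.129), and Synm, an intermediate filament protein, at -0.64 ± 0.12 (adjusted p = 0.135). Tpm2 passed in limma when the channels were fitted separately, with arrays as random blocks (adjusted p = 0.0273), a fit that called 1.98% of all gene names. Without any block that fit called 1.02%. None of the 9 markers passed in either. Mrtfa, a coactivator of serum response factor, had the largest p, at 0.0086 ± 0.096. Actg2, the enteric smooth muscle actin, chosen after its values were seen, had ratios of -1.40, -1.52, -0.32 and 0.76, the order of Cnn1. Among the 11 genes above 0, Nrip2 was higher on 4 of 4 arrays at 0.63 ± 0.19 and Cald1 on 3 of 4 at 0.32 ± 0.12. Neither passed, and both were chosen in the same way. The list median was -0.14, -0.12, -0.14 and 0.16 on the arrays and -0.16 without replicate 4.

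Other pericyte genes, also 29 measured of 30, leaned the opposite way, with 21 above 0 and 8 below it. Their median was 0.21, and 0 were past the threshold in limma. The lean weakened once replicate 4 was dropped, leaving 16 of 29 above 0. Vtn, vitronectin, which brain pericytes express strongly, was higher on 4 of 4 arrays at 1.16 ± 0.12 (adjusted p = 0.104), and Foxs1, a forkhead factor of perivascular cells, at 0.66 ± 0.075 (adjusted p = 0.109). In the random-block fit both passed (adjusted p = 0.00839 and 0.00959 in limma), as they did without a block,, and 0 others of the list did. Gja4, a connexin of vessels, had the largest p, at 0.0056 ± 0.12. Gucy1a1 and Gucy1b1, the subunits of the nitric oxide receptor, had 0.87 ± 0.16 and 0.62 ± 0.15, and Pdgfrb, the growth factor receptor that recruits pericytes, 0.53 ± 0.12; these 3 were higher on 4 of 4 arrays, did not pass, and were chosen after their values were seen. Higd1b, which is more restricted to pericytes, was lower on 4 of 4 arrays at -0.35 ± 0.13, did not pass either, and was chosen in the same way. Itga1 (-0.26 ± 0.056) and Rgs4 (-0.37 ± 0.11) were likewise lower on 4 of 4 arrays without passing. Ptn had the lowest mean of the list, at -1.20 ± 0.57 (-1.81 without replicate 4). Its WT level was 7.95 in replicate 4 against 13.06 to 13.62 in the others. Art3 had -0.52 ± 0.17 (-0.74 without replicate 4). Ptn and Art3 were each higher on 1 of 4 arrays and did not pass. Further genes, such as Angpt1 (0.38 ± 0.069) and Itga7 (0.39 ± 0.082), were higher on 4 of 4 and did not pass. All of these were also chosen after their values were seen. The list median was -0.092, 0.34, 0.042 and 0.47 on the arrays, and 0.096 without replicate 4. Fibroblast and progenitor genes, some of which sit in the same stromal cells, were ordered alike over the arrays, with medians of -0.65, 0.52, 0.12 and 1.5, 11 of 12 above 0, and 0 passing. Without replicate 4, 7 of 12 were above 0 and the median was 0.0098, against 0.37 with it. Their mean log2 signal was 12.19 to 13.75 in WT and 12.996 to 13.67 in Ad/NICD, and their part in the pericyte values was not tested.

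Endothelial genes, which mark the inner layer of the same vessels, were below 0 for 15 of 16, with a median of -0.23 (-0.33 without replicate 4) and 0 past the threshold in limma. Cldn5, a tight-junction protein, had -1.21 ± 0.14 (adjusted p = 0.113) and Kdr, a receptor for vascular endothelial growth factor, -0.37 ± 0.071 (adjusted p = 0.140). Cldn5 passed in the random-block fit (adjusted p = 0.0317 in limma) and in the paired fit without replicate 4 (-1.37, adjusted p = 0.0480), and not in separate channels without a block (adjusted p = 0.0596). Vwf had the largest p at -0.092 ± 0.28. The mean log2 signal of the list was 10.42 to 10.52 in WT and 10.08 to 10.40 in Ad/NICD. The groups came closest in replicate 4, at 10.42 and 10.40. In replicates 1 to 3 they were further apart, at 10.49 to 10.52 and 10.08 to 10.23. Signals that recruit mural cells were 11 of 18 above 0 (median 0.086), and Notch genes of mural cells were 10 of 15 above 0 (median 0.10). Without replicate 4 the medians were 0.045 and 0.018. The 1 gene past the threshold in each, against 0.0478% of all gene names, was Heyl, which was chosen for its rise, so the counts say nothing about the lists. Skeletal muscle genes, which share Des with the contractile list, were below 0 for 12 of 12 with a median of -1.66 (-0.91 without replicate 4) and 0 passing. Tnnc2 had -2.61 ± 0.46, Mb -0.94 ± 0.19 and Myh2, with the largest p, -0.11 ± 0.17. Their mean log2 signal was 11.22 in WT replicate 4 and 7.07 to 9.01 in the 6 samples of the other replicates. WT replicate 4, the lowest sample for Acta2, Tagln, Myh11 and Cnn1, thus had the highest skeletal muscle level. The part of this in their values was not tested. Tpm1 of the contractile list was also highest in this sample, at 14.69 against 8.26 to 10.64 in the other WT samples. Its mean ratio was -1.15 ± 0.53, and it was chosen after its values were seen.

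**Figure D5:**
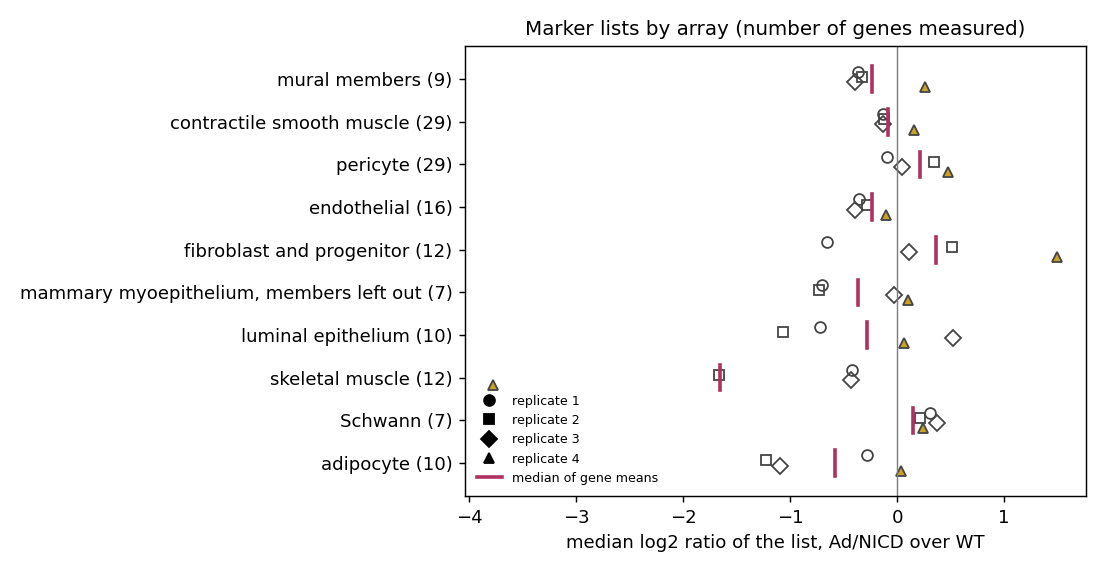
Median log2 ratio of Ad/NICD over WT (x axis) for each marker list on each of the 4 arrays, with replicate 4 filled, red bars for the median of the gene means, and the number of measured genes in brackets. The 9 markers had medians of -0.36, -0.33, -0.40 and 0.26 on the arrays, and skeletal muscle had the lowest value, -3.78, on the array of replicate 4.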

How the data were processed

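Total RNA of white adipose tissue from 8 mice was labelled with Cy3 or Cy5, per the labels. Scans were read with Agilent Feature Extraction 11.5, per the submitters' processing notes. The deposited scanner tables hold intensity values per spot, with scanner flags as 0 or 1; those of same-numbered WT and Ad/NICD samples were identical, giving 4 arrays. The authors' deposited value table is on a log2 scale: each column equals the log2 processed signal of 1 channel minus a constant (column medians -3.84 to -3.52), green for WT and red for Ad/NICD. The sources used here do not give the step behind it.

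Median foreground was corrected with normexp (offset 50) and each array was loess-normalised, giving control spots no weight (limma 3.58.1, R 4.3.3). Of 55681 probes, 28026 were named through RefSeq (GRCm38.p6) and the rest kept the files' name. Probes had to be well above background in 1 or both channels on 3 or more arrays. Replicate 1's array lacks these flags, which were rebuilt as signal above 5.4 SD of the negative controls, which matched 97.6% to 99.9% of flags elsewhere. The brightest probe stood for a gene. The 4 ratios were tested against 0 with limma and Benjamini-Hochberg adjustment at 0.05; SE are those of the fit. The fit was tested on simulated data. Same-numbered samples pair by sharing an array, and their deviations correlated at 0.18, 0.17, 0.56 and 0.53. Those of differently numbered samples correlated at -0.53 to 0.28. WT replicate 1 correlated more with Ad/NICD replicate 3 (0.28) than with its own partner (0.18). Whether the mice were littermates is not given, and p-values measure the spread between these samples.

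The members and lists (contractile, pericyte, recruitment, mural Notch, endothelial, fibroblast, myoepithelial, luminal, skeletal muscle, Schwann, adipocyte, mesothelium) were chosen with earlier results of these data known. From each list the text names genes past the threshold, or else the 2 with the smallest p and the 1 with the largest, and others as marked; 1 gene that this rule names is not reported here. Alternatives were the background correction, normalisation, filter, probe rule, variance model, pairing, the authors' table and each replicate left out.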

Additional observations from a re-analysis of the deposited data

Results flagged for a closer look

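The 33 sets of 4 values examined were the WT levels, Ad/NICD levels and ratios of the 9 markers, Heyl and Notch3. Of these, 8 had 1 sample far from the other 3 by Dixon's criterion (the gap to the nearest value as a share of the range). Its nominal rate of 1 in 20 holds for independent normal values. These sets are not independent, as each ratio comes from the levels of the same gene, so 8 of 33 was not tested against chance. Of the 8, 5 were replicate 4. In WT, the level of replicate 4 was 11.52 for Acta2 against 13.36 to 13.64 in the others, 12.59 for Tagln against 13.65 to 13.86, 8.66 for Myh11 against 9.60 to 9.66 and 8.60 for Cnn1 against 12.29 to 12.63. These are 4 of the 9 markers, where 3.49% of all gene names had WT replicate 4 that far below. The ratio of Myh11 was 1.18 in replicate 4 against 0.038 to 0.19. The other 3 were spread over replicates: the Ad/NICD level of Cspg4 was 8.61 in replicate 3 against 9.31 to 9.40, its ratio was 0.13 in replicate 1 against -0.81 to -0.69, and the ratio of Mcam was 0.60 in replicate 1 against 0.26 to 0.31.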

How the results depend on the processing

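Over the 9 markers, 123 of 126 alternative values kept their sign and stayed short of the threshold. None of the markers passed under any of the 14 alternatives. Part of the sign count was fixed in advance. The variance model and the separate-channel fits leave the mean ratio as it is, and both filter settings kept the same probes. Averaging the probes of Mcam kept its sign but gave 0.0044 (adjusted p = 0.986 in limma), against 0.37 for its brightest probe. The 3 values that turned were under median centring, at -0.16 for Abcc9, -0.028 for Mcam and -0.12 for Myh11. Relative to the median of all gene names there (-0.32) they were 0.16, 0.29 and 0.20. The median of the 9 was -0.69 under that scaling and -0.43 to -0.13 with each replicate left out. The smallest gap of Heyl to a marker was 2.24 to 2.56 without each replicate, and that of Notch3 0.054 to 0.38, the lowest without replicate 4. Heyl kept its direction under all 14 alternatives (2.36 to 3.07) and missed the threshold under 8, with adjusted p-values of 0.0590 to 0.432 in limma. The count of calls over all gene names, 12 in the paired fit, was 4 with scanner processed signals, 3 with the authors' table, and 0 with median centring, without the dim-probe filter, or with trend and robust settings. It was 256 in separate channels with no replicate block and 496 with the array as a random replicate block, and 0 to 43 when each replicate was left out (43 without replicate 4). Counts of 0 left 9615, 5092 and 2896 gene names at an unadjusted p under 0.05 in the 3 former settings. The causes were not tested. Kcnj8 and the second Mcam probe are limited by low signal over background.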

Other observations

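Lists not described above had 0 genes past the threshold in limma. Schwann cell genes were 5 of 7 above 0 with a median of 0.15 (0.22 without replicate 4); S100b, also found in adipocytes, had 1.35 ± 0.14 (adjusted p = 0.104) and Ngfr, the low-affinity neurotrophin receptor, 1.38 ± 0.45. S100b and Retn passed in the random-block fit (adjusted p = 0.0234 and 0.0471 in limma); without a block Retn did not (adjusted p = 0.0715). Of the 10 adipocyte genes 7 were below 0, with a median of -0.58 (-0.87 without replicate 4); Retn, resistin, had -1.83 ± 0.39, Cfd, adipsin, -1.43 ± 0.38 and Fabp4 0.13 ± 0.15. Col1a2 and Cd34 of the fibroblast list had 0.98 ± 0.44 and 0.52 ± 0.27, with Pdgfra at 0.10 ± 0.25. Luminal Areg, a growth factor, had 1.54 ± 0.69, Cldn4 -0.30 ± 0.14 and Ltf 0.020 ± 0.78. Mesothelium kept 3 of 6 genes, all below 0 (Lrrn4 -0.15, Krt19 -0.17 and Msln -0.0020). Krt19 is also on the luminal list, and the list's mean log2 signal was 6.39 and 6.63 in replicate 4 against 8.34 to 8.80 elsewhere.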
